A study of Mus musculus with 7 samples.

Results

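A set of 10 genes of the early embryo and the germline, 4 of them named developmental pluripotency associated (Dppa2, Dppa3, Dppa4 and Dppa5a) and 6 known as germline genes (Sohlh2, Dazl, Ddx4, Mael, Tdrd12 and Stk31), were followed through mouse embryonic stem cells (ESCs) that lack a distal Sox2 enhancer. They were chosen by name with earlier results of these data known, and all 10 were found among the 31498 genes of the GENCODE M1 annotation that had at least 200 exonic bases of their own. RNA-seq was performed on F123 cells, an F1 hybrid ESC line of Mus musculus castaneus (CAST) and 129 parentage. The wild type carries the enhancer on both alleles. CRISPR/Cas9 removed the enhancer from the 129 copy in CAST+/129- cells, from the CAST copy in CAST-/129+ cells and from both in CAST-/129- cells, and each genotype is 1 clone and 1 library. ChIP-seq for H3K4me3 and H3K27ac in unmodified F123 cells and for H3K27ac in unmodified J1 cells, another ESC line, gave 1 library each, so that histone marks were not measured in the deletion clones. The clones were recovered on mouse embryonic fibroblast feeders before they were passaged without feeders on gelatin.

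Dppa2 and Dppa4 are SAP domain proteins that bind chromatin together and are known as activators of early zygotic genes. Dppa3 (Stella) is a maternal and primordial germ cell protein that protects DNA methylation in the early embryo, and Dppa5a (Esg1) is a small RNA-binding protein of the KH domain family. The germline genes act later, in meiosis and in the piRNA pathway that silences transposons, and in somatic cells many germline promoters are CpG-rich and kept off by DNA methylation and by repressors that bind the E-box.

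The promoters of the genes differ in base composition. Shown are the 200 bases before the annotated start of Dppa3, which had the largest increase, of Dazl and Sohlh2, which had the largest decreases, and of Ddx4, which has the most CpGs. Capitals mark CpG dinucleotides.
Dppa3 (chr6:122576228-122576427, mm9, plus strand): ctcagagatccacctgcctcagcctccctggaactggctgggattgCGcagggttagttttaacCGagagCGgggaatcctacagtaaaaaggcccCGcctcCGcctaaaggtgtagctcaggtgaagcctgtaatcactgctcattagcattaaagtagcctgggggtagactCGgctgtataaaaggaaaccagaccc
Sohlh2 (chr3:54985750-54985949, mm9, plus strand): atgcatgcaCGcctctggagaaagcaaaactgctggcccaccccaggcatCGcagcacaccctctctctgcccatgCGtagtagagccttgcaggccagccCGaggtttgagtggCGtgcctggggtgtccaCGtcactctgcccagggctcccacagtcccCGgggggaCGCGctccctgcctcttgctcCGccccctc
Dazl (chr17:50432925-50433124, mm9, minus strand): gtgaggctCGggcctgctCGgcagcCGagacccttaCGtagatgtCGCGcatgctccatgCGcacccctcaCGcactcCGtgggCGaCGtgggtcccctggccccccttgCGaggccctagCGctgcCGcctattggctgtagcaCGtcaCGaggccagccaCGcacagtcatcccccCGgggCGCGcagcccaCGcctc
Ddx4 (chr13:113442519-113442718, mm9, minus strand): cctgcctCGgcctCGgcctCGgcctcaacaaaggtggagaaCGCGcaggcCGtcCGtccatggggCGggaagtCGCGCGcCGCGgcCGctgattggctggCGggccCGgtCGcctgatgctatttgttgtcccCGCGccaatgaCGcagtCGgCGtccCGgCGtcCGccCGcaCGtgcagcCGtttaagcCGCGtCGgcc
These stretches hold 6 CpGs in Dppa3, 10 in Sohlh2, 21 in Dazl and 31 in Ddx4. Dppa2 and Dppa5a were also low, with 3 and 8, and Stk31 and Mael were high, with 24 and 15. Tdrd12 was the exception among the germline genes, with 5.

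The RNA libraries held between 7557984 distinct alignments in CAST-/129- and 33684661 in wild type, and between 5831199 and 24848422 of them lay on the genes. Levels are given as FPKM, here distinct alignments scaled by exon length and by the alignments on genes, with exact 95% Poisson intervals in the plot of levels. The intervals reflect counting error alone, so a genotype difference has neither a replicate check nor a test. Sox2, the target of the enhancer, was at 174.7 FPKM in wild type and 82.0, 73.1 and 7.40 in CAST+/129-, CAST-/129+ and CAST-/129-. Of 8 ESC markers, all were detected in every library, and Nanog and Zfp42 fell past 3-fold in CAST-/129-. Of 15 fibroblast markers, 3 were past 3-fold up in each monoallelic clone and 11 in CAST-/129-. Their summed level was 304.0 FPKM in wild type, 333.9 and 368.5 in CAST+/129- and CAST-/129+ and 1096 in CAST-/129-, and Lum was the only one at 0, in wild type. Fn1 and Vim, at 190.7 and 83.9 FPKM, made up most of the sum in wild type. Fn1 was at 109.9 and 103.8 in CAST+/129- and CAST-/129+. Of the 15 markers, 12, 13 and 15 were above wild type and 3, 2 and 0 below in CAST+/129-, CAST-/129+ and CAST-/129-. Of all genes 10559, 10538 and 9740 were above and 12107, 12106 and 12276 below. Of 10 trophectoderm markers 4, 5 and 4 were past 3-fold up in the 3 clones, and of 8 primitive endoderm markers 3 were past it down in each. Over all genes 0.321%, 0.473% and 0.819% were past it up and 0.305%, 0.330% and 0.511% down in CAST+/129-, CAST-/129+ and CAST-/129-. The part of such cells in the differences of the clones was not tested. In these bulk libraries fewer cells that express a gene and less RNA per cell cannot be told apart.

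In all 4 libraries Dppa5a was the most abundant of the 10 genes. In wild type it was followed by Dazl, Sohlh2, Dppa4, Dppa2, Mael, Ddx4, Stk31, Dppa3 and Tdrd12, and no 2 neighbours in this order had overlapping intervals. This order holds for distinct alignments at the genes themselves. By reads before collapsing, Dppa4 at 84.8 FPKM was above Dazl at 81.6 and Sohlh2 at 58.7. Near-identical copies of Dppa2 and Dppa4 elsewhere in the genome held 1359 and 882 alignments, beside 2170 and 2341 at the genes. The places of Dppa2 and Dppa4 in the order are therefore uncertain. In the deletion clones the order was different. Dppa3, at rank 9 in wild type, was between rank 2 and rank 4, and Dazl, at rank 2 in wild type, fell to ranks 7, 8 and 9 in CAST+/129-, CAST-/129+ and CAST-/129-. Intervals of neighbours in the order overlapped in 4 of 9 pairs in CAST+/129-, 5 in CAST-/129+ and 4 in CAST-/129-, for example Dppa3 and Dppa2 in CAST+/129- and Mael and Dazl in CAST-/129-.

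**Figure D1:**
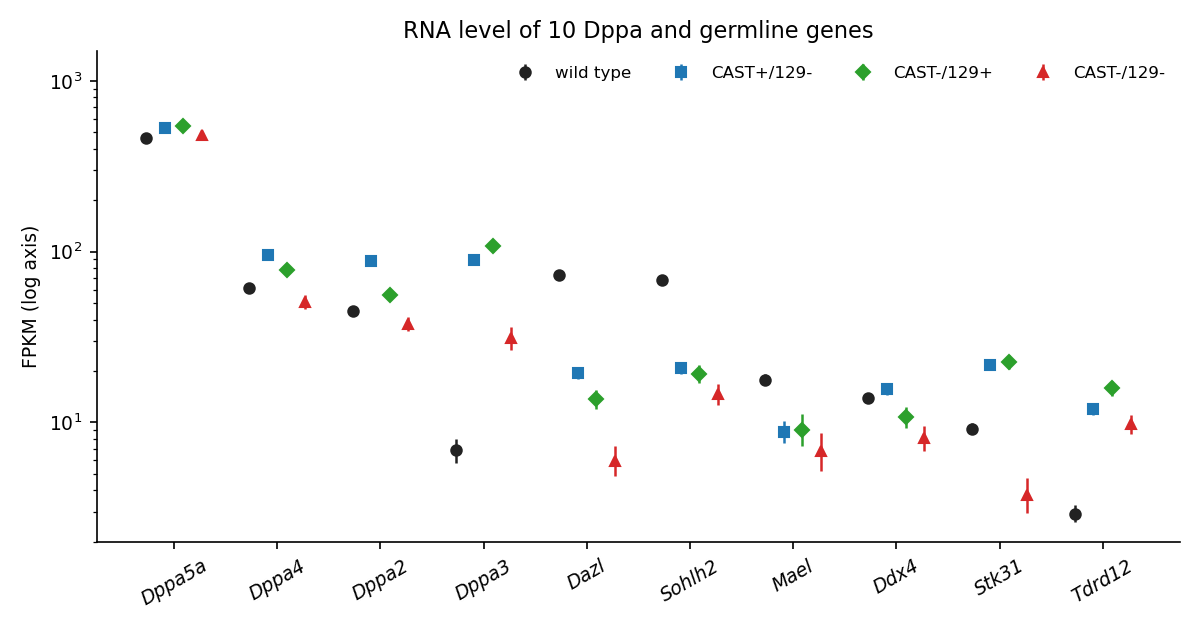
FPKM on a log axis for the 10 genes in the 4 RNA libraries, 1 library per genotype, with exact 95% Poisson intervals that cover counting error only. By distinct alignments, Dppa5a lies between 461 and 547 FPKM, Dppa3 is lowest in wild type at 6.86 FPKM, and Dazl and Sohlh2 are highest in wild type at 73.4 and 68.1 FPKM.

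With the threshold of the study's methods, a ratio of at least 3 between values of FPKM plus 4, Dppa3 was past the threshold upward in each of the 3 deletion clones and Dazl downward in each of them, and Sohlh2 was past it downward in CAST-/129+ and CAST-/129-. The other 7 genes did not pass it in any clone. Upward this was 1 of 10 genes in each clone, beside 0.321% of all 31498 genes in CAST+/129-, 0.473% in CAST-/129+ and 0.819% in CAST-/129-. Downward it was 1 of 10 genes in CAST+/129-, beside 0.305% of all genes, and 2 of 10 in the others, beside 0.330% in CAST-/129+ and 0.511% in CAST-/129-. With the pseudo-value of 4 a gene needs at least 8 FPKM in wild type to pass downward. Of the 10 genes 8 had that level, Dppa3 and Tdrd12 being the exceptions, and of all genes 8141, of which 1.18%, 1.28% and 1.98% were past the threshold downward in the same order of clones. The median log2 ratio of the 10 genes was 0.40 in CAST+/129-, 0.27 in CAST-/129+ and -0.41 in CAST-/129-, beside -0.03, -0.06 and -0.08 over the 13826 genes with a mean of at least 1 FPKM. These 3 comparisons share the wild type library.

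By the interval of the ratio to wild type, the genes fell into groups. Dppa3 and Tdrd12 were above wild type in all 3 clones (2 of 10 genes, beside 9.45% of all genes). Sohlh2, Dazl and Mael were below it in all 3 (3 of 10, beside 12.5%). Dppa2, Dppa4 and Stk31 were above wild type in both monoallelic clones and below it in CAST-/129- (3 of 10, beside 0.517%). Dppa5a and Ddx4 showed none of these patterns. The shares are over all 31498 genes, of which 13826 had a mean of at least 1 FPKM, as did all 10 genes here. An interval can hardly exclude wild type for a gene with few alignments, and the shares among the 13826 were not taken. An excess over genes at that level is therefore not shown.

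**Figure D2:**
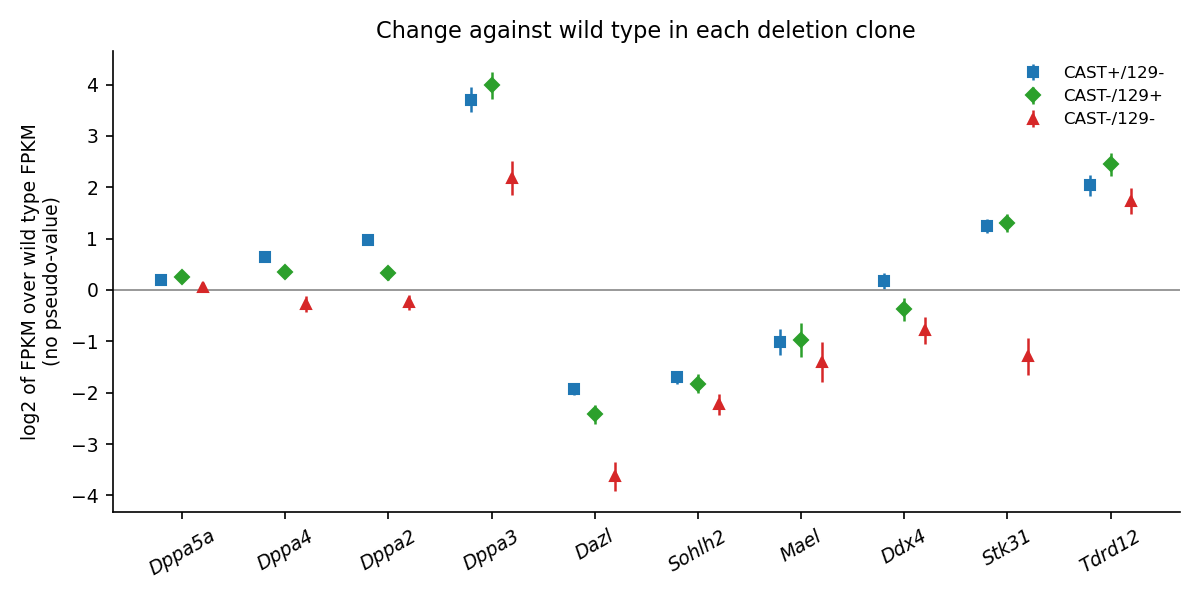
Log2 ratio of FPKM to wild type, with no pseudo-value, for the 10 genes in the 3 deletion clones, with exact 95% binomial intervals that cover counting error only. Dppa3 and Tdrd12 lie above 0 and Dazl, Sohlh2 and Mael below 0 in all 3 clones, and Stk31 changes side in CAST-/129-.

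Among the Dppa genes, Dppa3 was the gene that passed the threshold. Dppa3 (ENSMUSG00000046323.2, chr6:122576428-122580290 of mm9, plus strand) had 152 distinct alignments in wild type and 993, 586 and 162 in CAST+/129-, CAST-/129+ and CAST-/129-. These are 6.86 FPKM (5.81 to 8.04), 89.4 (83.9 to 95.1), 108.4 (99.8 to 117.6) and 31.1 (26.5 to 36.3). Wild type was thus the low library, and the monoallelic clones were the high ones. The level was 13.0-fold that of wild type in CAST+/129-, 15.8-fold in CAST-/129+ and 4.54-fold in CAST-/129-. By reads before collapsing Dppa3 was at 1919%, 2355% and 539% of wild type in the same order. With the reads thinned to the same number it was at 1734%, 1979% and 561%. The size of the difference thus depended on the counting, and its direction did not. CAST-/129- was at 34.9% (29.3 to 41.2) of CAST+/129- and 28.7% (24.0 to 34.2) of CAST-/129+, so that the clone without any copy of the enhancer lay between wild type and the monoallelic clones. On the antisense strand of Dppa3, wild type had 11 of 163 alignments (6.75%, exact binomial interval 3.42 to 11.8), and the deletion clones had 2 of 995, 0 of 586 (up to 0.628%) and 0 of 162 (up to 2.25%).

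Dppa2 and Dppa4, whose products act together and whose genes lie 16184 bp apart on chromosome 16, ordered the libraries in the same way at the top and the bottom. Dppa2 (ENSMUSG00000072419.4, chr16:48310590-48319836, plus strand) was at 44.8 FPKM in wild type and 88.4, 56.1 and 37.9 in CAST+/129-, CAST-/129+ and CAST-/129-. Dppa4 (ENSMUSG00000058550.7, chr16:48283848-48294405, plus strand) was at 61.4, 95.9, 78.3 and 50.9 FPKM in the same order. CAST+/129- was the highest and CAST-/129- the lowest library for both. Dppa2 was at 197% (186 to 209), 125% (115 to 137) and 84.4% (76.0 to 93.7) of wild type in CAST+/129-, CAST-/129+ and CAST-/129-. Dppa4 was at 156% (147 to 166), 128% (117 to 139) and 82.8% (74.7 to 91.6). Neither reached the 3-fold threshold, and the clones differed from each other by more than counting error, with CAST-/129- at 42.8% (38.5 to 47.5) of CAST+/129- for Dppa2 and at 53.0% (47.8 to 58.8) for Dppa4.

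Dppa5a (ENSMUSG00000060461.5, chr9:78214859-78215984, minus strand) was close to wild type by distinct alignments, and the side it fell on depended on the counting. By distinct alignments it was at 461 FPKM in wild type and 530, 547 and 480 in CAST+/129-, CAST-/129+ and CAST-/129-, which is 115%, 119% and 104% of wild type. By reads before identical alignments were collapsed it was at 1398 FPKM in wild type and 1362, 1189 and 938 in the clones. These are 97.5%, 85.0% and 67.1% of wild type. With every library thinned to the same number of reads and collapsed again it was at 104%, 95.8% and 80.0%. Dppa5a has 619 exonic bases, and 7.90 reads stood behind each of its distinct alignments in wild type against 2.87 in CAST-/129-. The other 9 genes stayed on the same side of wild type in every clone under the 3 ways of counting.

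Reads of Dppa2, Dppa4 and Dppa5a can also lie at near-identical copies elsewhere in the genome. Stretches of at least 150 bp at 90% identity or more were found at 5 other places for Dppa2, 2 for Dppa4 and 7 for Dppa5a, 2 for Dppa3 and 0 for the 6 germline genes. In wild type the copies held 38.5% of the alignments of Dppa2 and its copies together, 27.4% for Dppa4 and 55.4% for Dppa5a, and 0 alignments lay at the copies of Dppa3. How the aligner placed such reads is not given in the sources used here, so the levels of Dppa2, Dppa4 and Dppa5a are uncertain. With the copies added, Dppa2 was at 187%, 119% and 77.5% of wild type in CAST+/129-, CAST-/129+ and CAST-/129-. Dppa4 was at 146%, 112% and 71.7%, and Dppa5a at 103%, 97.2% and 79.9%. Dppa2 and Dppa4 stayed on the same side of wild type, and Dppa5a crossed it in CAST-/129+ and CAST-/129-. Taken alone, the copies of Dppa4 were at 118%, 70.7% and 42.0% of wild type, below it in CAST-/129+ where the gene was above. Those of Dppa2 were at 170%, 109% and 66.5%, on the same sides as the gene.

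**Figure D3:**
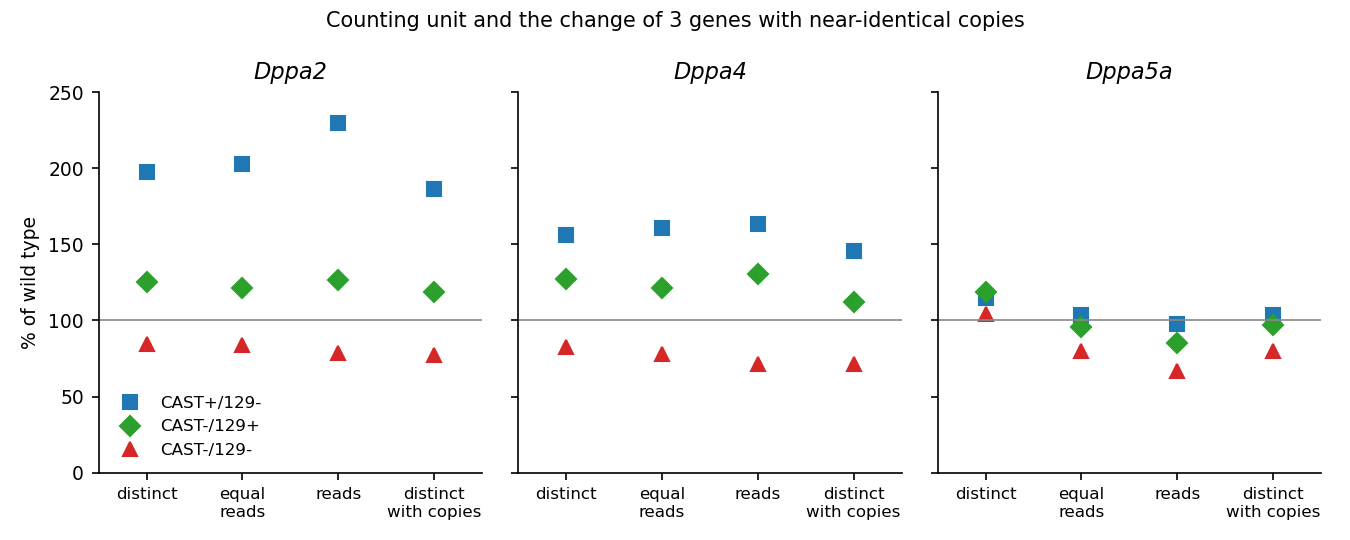
Level as a percent of wild type for Dppa2, Dppa4 and Dppa5a in the 3 deletion clones, counted as distinct alignments, as distinct alignments after thinning to the same number of reads (marked equal reads), as reads and as distinct alignments with the near-identical copies added. Dppa2 and Dppa4 keep their side of 100% in every clone, and Dppa5a in CAST-/129- moves from 104% by distinct alignments to 67.1% by reads.

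Sohlh2 and Dazl were among the most abundant of the 10 genes in wild type and were lower in every deletion clone. Sohlh2 (ENSMUSG00000027794.4, chr3:54985950-55013879, plus strand) is a basic helix-loop-helix transcription factor of differentiating spermatogonia and oocytes. It had 4003 distinct alignments in wild type and 616, 276 and 201 in CAST+/129-, CAST-/129+ and CAST-/129-, or 68.1 FPKM (66.1 to 70.3), 20.9 (19.3 to 22.6), 19.3 (17.1 to 21.7) and 14.6 (12.6 to 16.7). Wild type stood apart, and the 2 monoallelic clones did not differ beyond counting error, with CAST-/129+ at 92.1% of CAST+/129- (79.6 to 106). The level was 3.26-fold lower than wild type in CAST+/129-, which with the pseudo-value was a log2 ratio of -1.53 and just short of the threshold, and it was past it by reads (-1.73) and with the reads thinned to the same number (-1.60). It was 3.54-fold lower in CAST-/129+ and 4.67-fold lower in CAST-/129-. In CAST-/129+ its log2 ratio of -1.63 was past the threshold, but not with median-of-ratios scaling (-1.58) or a pseudo-value of 10 (-1.42).

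Dazl (ENSMUSG00000010592.7, chr17:50418719-50432924, minus strand) is an RNA-binding protein that promotes translation in germ cells. It had 5500 distinct alignments in wild type and 727, 250 and 105 in CAST+/129-, CAST-/129+ and CAST-/129-, or 73.4 FPKM (71.5 to 75.4), 19.4 (18.0 to 20.8), 13.7 (12.0 to 15.5) and 5.97 (4.89 to 7.23). No intervals of the 4 libraries overlapped. Dazl was 3.79-fold lower than wild type in CAST+/129-, 5.36-fold lower in CAST-/129+ and 12.3-fold lower in CAST-/129-, where it was at 30.9% (24.9 to 37.9) of CAST+/129- and 43.6% (34.4 to 55.0) of CAST-/129+. By reads before collapsing it was at 18.4%, 12.7% and 5.41% of wild type, against 26.4%, 18.6% and 8.14% by distinct alignments, a move of over 1.5 times in CAST-/129-. Of its 12 exons, 11 had alignments in every library, and all 11 exons of Sohlh2 did.

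Ddx4 (ENSMUSG00000021758.7, chr13:113388541-113442518, minus strand), the germ cell RNA helicase also called Vasa, differed less. It was at 13.9 FPKM in wild type and 15.7, 10.7 and 8.07 in CAST+/129-, CAST-/129+ and CAST-/129-. CAST+/129- was close to wild type at 113% (101 to 125), and the clones without the CAST copy of the enhancer were lower, at 76.9% (65.3 to 90) and 57.9% (47.9 to 69.4). All 22 exons of Ddx4 had alignments in all 4 libraries.

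Mael and Tdrd12, which both serve the piRNA pathway, differed from wild type in opposite directions. Mael (ENSMUSG00000040629.3, chr1:168131516-168168875, minus strand), a component of the nuage of germ cells, was at 17.8 FPKM in wild type and 8.83, 9.07 and 6.77 in CAST+/129-, CAST-/129+ and CAST-/129-. It was thus at 49.6% (41.7 to 58.8), 51.0% (40.2 to 64.0) and 38.1% (28.8 to 49.5) of wild type, and the intervals of the ratios between deletion clones all included equality. Tdrd12 (ENSMUSG00000030491.9, chr7:36254117-36322764, minus strand), a Tudor domain protein needed for piRNA production, was the lowest of the 10 genes in wild type at 2.92 FPKM and was at 12.0, 15.9 and 9.76 FPKM in the clones. It was at 412% (358 to 475), 545% (467 to 635) and 334% (280 to 398) of wild type in CAST+/129-, CAST-/129+ and CAST-/129-. Because the wild type level is below the pseudo-value of 4, its log2 ratios were 1.21, 1.52 and 0.99, short of the threshold. Of its 30 exons, between 25 and 27 had alignments, but most alignments lay in the first 12, with 249 of 296 in wild type and 523 of 611, 331 of 393 and 178 of 232 in CAST+/129-, CAST-/129+ and CAST-/129-. The FPKM above is taken over the exonic bases of the whole gene. Exons 1 to 12, a split chosen after the values were seen, hold 1620 of these bases and were at 6.19 FPKM in wild type and 25.9, 33.7 and 18.8 in the clones, which is 419%, 545% and 305% of wild type. With the pseudo-value their log2 ratios were 1.55, 1.89 and 1.17, so that CAST-/129+ was past the threshold in these exons. Exons 13 to 30 were at 0.770 FPKM in wild type and 2.87, 4.16 and 3.77 in the clones. Past exon 12 the introns also held alignments, 192 in wild type and 247, 204 and 116 in the clones, or 0.350 FPKM and 0.899, 1.53 and 0.902, while the introns before it held 0. Their part in the values of exons 13 to 30 was not tested.

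Stk31 (ENSMUSG00000023403.8, chr6:49345603-49419500, plus strand), a Tudor domain protein kinase of germ cells, split the deletion clones. It was at 9.19 FPKM in wild type (8.54 to 9.87) and 21.8 (20.4 to 23.3), 22.6 (20.6 to 24.8) and 3.76 (2.94 to 4.74) in CAST+/129-, CAST-/129+ and CAST-/129-. The monoallelic clones were alike and high, with CAST-/129+ at 104% (92.4 to 116) of CAST+/129-, and CAST-/129- was the low library, at 17.2% (13.3 to 22.0) of CAST+/129- and 16.6% (12.7 to 21.4) of CAST-/129+. Against wild type these are 237%, 246% and 40.9%, none past the threshold with the pseudo-value. All 24 exons had alignments in the first 3 libraries, and 20 of them did in CAST-/129-, which had 71 alignments on the gene.

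The promoters of Dppa2, Dppa4 and Dppa5a carried far more H3K27ac than those of the germline genes, and those of Sohlh2 and Dazl the most H3K4me3. Enrichment was taken as the density of 5′ ends of distinct alignments within 2 kb on each side of the gene start over the mean density of chromosomes 1 to 19 and X of the same library, with no input used, and a promoter was called marked at 5-fold or more. In the F123 H3K27ac library the promoters of all 4 Dppa genes were marked, and those of the 6 germline genes were not (4 of 10, beside 23.1% of the 31466 gene starts counted). In a window of 1 kb on each side Dazl and Tdrd12 were marked too, at 7.54-fold and 6.70-fold, and Dppa3 was not, at 4.19-fold. In the J1 H3K27ac library Dppa2, Dppa4 and Dppa5a were marked (3 of 10, beside 18.5%). In the F123 H3K4me3 library Dppa4, Sohlh2 and Dazl were marked (3 of 10, beside 35.8%), and in the window of 1 kb Dppa2 and Dppa5a were marked too, at 5.39-fold and 5.02-fold. The shares of all gene starts marked in the window of 1 kb were not taken, so the calls in that window have no background beside them. The H3K27ac libraries of both lines differ in depth, with 1576875 and 7743500 distinct alignments, and were not compared as levels.

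For H3K27ac, an acetylation of active promoters and enhancers, Dppa5a was at 35.2-fold in F123 (28.1 to 43.5, 84 alignments) and 29.3-fold in J1 (26.2 to 32.5). Dppa2 was at 27.6-fold (21.4 to 35.2) and 32.3-fold (29.2 to 35.7), and Dppa4 at 23.9-fold (18.1 to 30.9) and 19.5-fold (17.1 to 22.2). Dppa3 was lower, at 6.28-fold (3.52 to 10.4, 15 alignments) and 3.92-fold (2.87 to 5.23). Of the germline genes, Tdrd12 was highest, at 4.19-fold (2.01 to 7.70) and 3.58-fold (2.58 to 4.84), and its RNA was the lowest of the 10 in wild type, though not in the deletion clones. In the window of 1 kb in F123 Dazl was above it. Dazl was at 3.77-fold (1.72 to 7.15) and 1.19-fold (0.653 to 2.0), and Sohlh2 at 1.67-fold (0.456 to 4.29) and 0.768-fold (0.351 to 1.46). Mael, Ddx4 and Stk31 were between 0.419-fold, which is 1 alignment, and 1.67-fold in F123 and between 0.512-fold and 1.19-fold in J1. The medians of all gene starts were 1.26-fold in F123 and 1.45-fold in J1.

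For H3K4me3, a methylation of active promoters, the order was different, with Sohlh2 highest at 10.3-fold (8.49 to 12.4) and Dazl next at 7.53-fold (5.98 to 9.36). Dppa4 was at 5.30-fold (4.01 to 6.86) and Dppa2 at 4.28-fold (3.13 to 5.70). The remaining genes were between 1.95-fold for Mael and 3.16-fold for Stk31, where the median of all starts was 1.95-fold. By distinct alignments at the genes themselves, Sohlh2 and Dazl had RNA levels above those of Dppa2 and Dppa4 in wild type. In the same window they had more H3K4me3 and less H3K27ac. By reads before collapsing, Dppa4 was at 84.8 FPKM in wild type, above Dazl at 81.6 and Sohlh2 at 58.7. The RNA order also leaves out the near-identical copies of Dppa2 and Dppa4, and the H3K4me3 intervals of Dazl and Dppa4 overlapped.

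**Figure D4:**
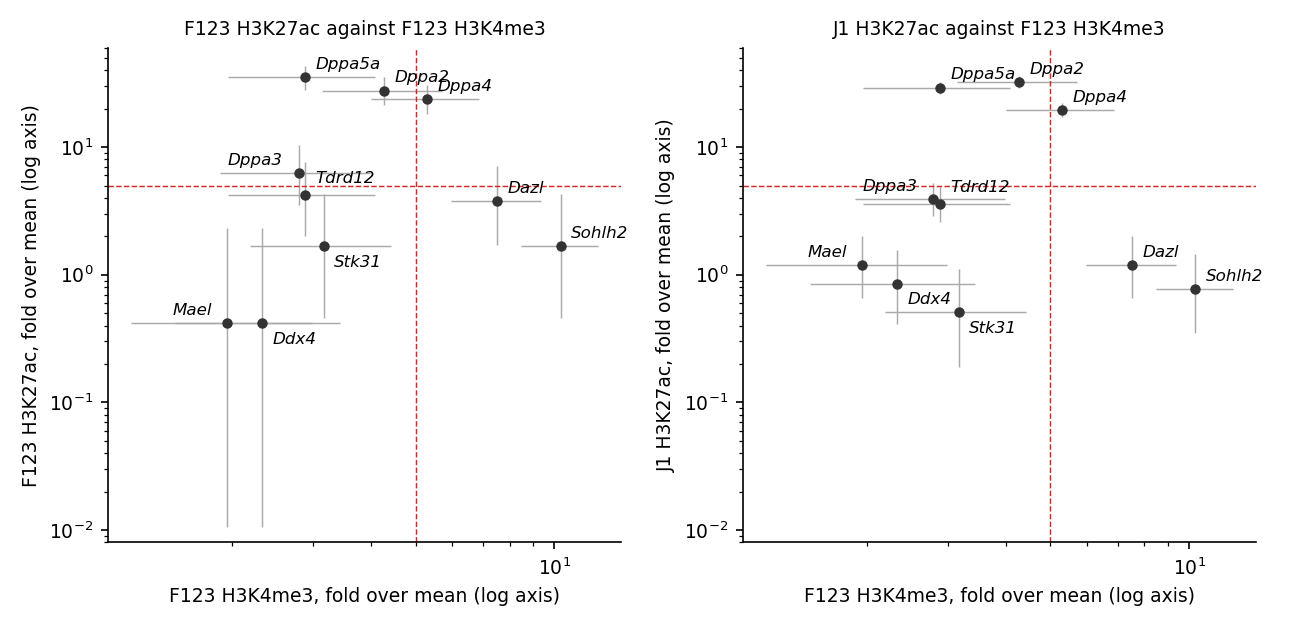
Fold over the library mean within 2 kb on each side of the gene start, on log axes, for F123 H3K4me3 (horizontal) against F123 H3K27ac (left) and J1 H3K27ac (right), 1 library each, with exact 95% Poisson intervals and dashed lines at the 5-fold limit. Dppa2, Dppa4 and Dppa5a lie above 19-fold for H3K27ac in both lines, and Sohlh2 and Dazl lie farthest to the right with H3K27ac under 5-fold.

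In bins of 250 bp the marks also differed in shape. H3K4me3 of Sohlh2 had its highest bin, 58.0-fold with 39 alignments, in the 250 bp after the start, and that of Dazl, 29.7-fold with 20 alignments, at 500 to 750 bp after it. For Dppa4 the highest bins of all 3 libraries lay at 250 to 500 bp after the start, at 32.7-fold for H3K4me3, 121-fold for F123 H3K27ac and 49.1-fold for J1 H3K27ac. For Dppa5a the highest H3K4me3 bin lay at 250 to 500 bp after the start, and the highest H3K27ac bins lay before the gene, in F123 in both bins from 2500 to 2000 bp upstream (147-fold and 22 alignments each) and in J1 at 2250 to 2000 bp upstream (71.0-fold, 52 alignments). From 500 to 1500 bp after the start of Dppa5a, a stretch that holds most of the gene, all 3 libraries had 0 alignments, so its folds over the whole window are uncertain. Ooep, another KH domain gene, lies 7931 bp from Dppa5a on the upstream side.

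**Figure D5:**
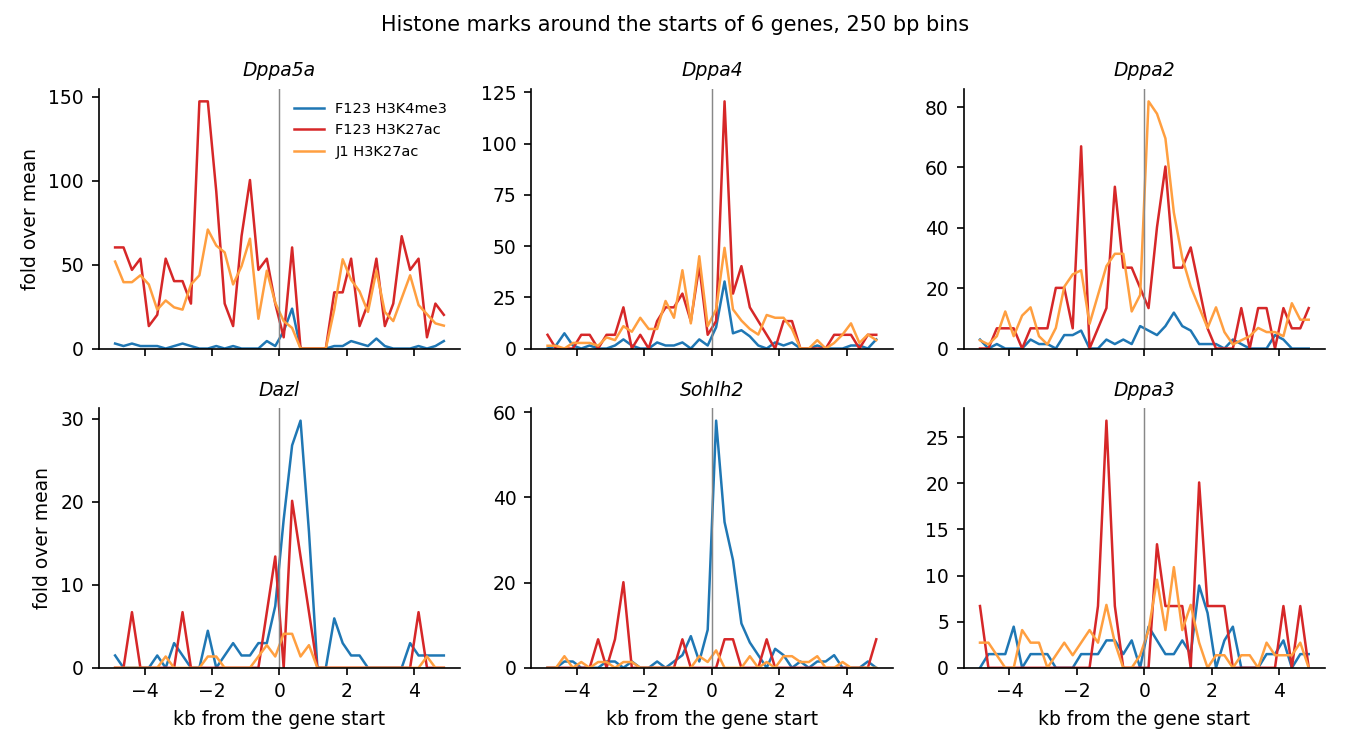
Fold over the library mean in 250 bp bins against the distance from the gene start in kb, in the direction of the gene, for 6 genes and the 3 ChIP libraries, with a vertical scale for each gene. H3K4me3 of Sohlh2 peaks at 58.0-fold just after the start with little H3K27ac, and H3K27ac of Dppa5a peaks upstream of the start.

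The CpG content around the starts followed another order than either mark. Within 500 bp on each side, the ratio of observed to expected CpGs was 0.747 for Ddx4, 0.740 for Dazl, 0.733 for Stk31, 0.690 for Mael and 0.523 for Sohlh2, above the median of 0.395 over all starts. Dppa3 and Dppa5a were at 0.445 and 0.441, Tdrd12 and Dppa4 at 0.400 and 0.389, and Dppa2 was lowest at 0.328. Of these 5 starts above the median by the most, those of Sohlh2 and Dazl were marked with H3K4me3, beside 35.8% of all starts. Ddx4, Stk31 and Mael were under 3.2-fold, and in the window of 1 kb they were at 4.09-fold, 3.72-fold and 2.60-fold.

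Short motifs were searched on both strands from 250 bases before to 50 bases after each start. For a gene with several annotated starts, such as Dppa3 and Stk31, the outermost was used. The E-box CACGTG was found in Mael, Ddx4 and Stk31, beside 6.71% of all starts, and lay 29 to 24 bases before the start of Ddx4 and 120 to 115 bases before that of Stk31. The letters TATAAA were found in Dppa2, Dppa3 and Stk31, beside 15.0% of all starts. They lay 31 to 26 bases before the start of Dppa2 and 20 to 15 before that of Dppa3, but 229 to 224 before that of Stk31. The letters GCGGGA, as in E2F motifs, were found in Dppa5a, Mael and Ddx4 (20.1% of all starts). The letters TGACG, as in cyclic AMP response elements, were found in Dppa2, Dppa5a, Sohlh2, Dazl and Ddx4 (20.4%). The octamer letters TGCAAAT and the Sox-like letters ACAATGG were found in 0 of 10 starts (4.72% and 3.53% of all starts). A match is a description of the letters, and a missing match says nothing about a factor.

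Of the 20 protein-coding neighbours, 1 on each side of each gene, which count Dppa2 and Dppa4 as neighbours of each other, 0 were past 3-fold in the monoallelic clones and 2 were past it, downward, in CAST-/129-, beside 0.511% of all genes. The 2 were Nanog, 77216 bp from Dppa3, at 130 FPKM in wild type and 115.4, 76.5 and 38.9 in CAST+/129-, CAST-/129+ and CAST-/129-, and Ooep, at 34.6, 28.3, 31.2 and 8.58. Nanog was thus below wild type where Dppa3 was above it. Nanog and Ooep were among 9 of the 20 that had the level in wild type a downward call needs. Gdf3, 16322 bp from Dppa3 on the other side, was at 27.8, 37.1, 19.8 and 24.2 FPKM. Morc1, a germ cell gene 111513 bp from Dppa2, was at 67.9, 38.9, 47.5 and 28.3 FPKM and so below wild type in the monoallelic clones, where Dppa2 and Dppa4 were above it. D330028D13Rik, 5698 bp from Stk31, was low and, like Stk31, above wild type in both monoallelic clones and below it in CAST-/129-, at 1.18, 3.44, 2.83 and 0.334 FPKM.

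Other genes of the same programmes were taken from lists drawn up by function. Of 13 primordial germ cell factors, 1 was past 3-fold down in CAST+/129-, 0 in CAST-/129+ and 3 in CAST-/129-, and 0 were past it up. Beside these, 0.305%, 0.330% and 0.511% of all genes were past it down, and 9 of the 13 had the level in wild type that this needs. Kit, the receptor of stem cell factor, was at 29.3 FPKM in wild type and 5.13, 7.70 and 3.56 in CAST+/129-, CAST-/129+ and CAST-/129-, and Prdm14, a transcriptional regulator of germ cell specification, was at 13.2, 3.82, 4.25 and 1.07. The other was the ESC marker Zfp42, at 185, 165, 101 and 52.3. Above wild type were 7, 8 and 5 of the 13, and 6, 5 and 8 were below it. Of all 31498 genes 10559, 10538 and 9740 were above and 12107, 12106 and 12276 below, and the rest did not differ. The list's median log2 ratio was 0.12, 0.10 and -0.15, and 0.15, 0.11 and -0.23 over the 12 genes with a mean of at least 1 FPKM.

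Of 19 meiosis genes, 1 was past 3-fold down in each monoallelic clone and 3 in CAST-/129-, and none was past it up, beside 0.305%, 0.330% and 0.511% of all genes past it down. Of the 19, 11 had the level in wild type that a downward call needs, and of all genes at that level 1.18%, 1.28% and 1.98% were past it down. Stra8, the gatekeeper of meiotic entry, passed it in all 3 clones, at 62.4 FPKM in wild type and 12.6, 5.04 and 4.38 in CAST+/129-, CAST-/129+ and CAST-/129-. Hormad1 and Smc1b, parts of the meiotic chromosome axis and cohesin, passed it in CAST-/129- alone, Hormad1 at 28.8, 36.6, 29.3 and 6.25 FPKM and Smc1b at 15.3, 10.2, 11.3 and 2.0. Of the 19, 11, 16 and 18 were below wild type and 8, 3 and 1 above in CAST+/129-, CAST-/129+ and CAST-/129-. Of all 31498 genes 12107, 12106 and 12276 were below and 10559, 10538 and 9740 above, and the rest did not differ. The list had a median log2 ratio of -0.15, -0.25 and -0.60, beside 0.00 over all genes, and over its 15 genes with a mean of at least 1 FPKM one of -0.36, -0.43 and -1.03, beside -0.03, -0.06 and -0.08. Stra8 was thus the gene of the list that, like Dazl, was past the threshold in every deletion clone.

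Of 15 piRNA and nuage genes, 0 passed the threshold in any clone, but only 4 of them had the 8 FPKM in wild type that a downward call needs. In CAST+/129-, CAST-/129+ and CAST-/129-, 9, 11 and 11 of the 15 were below wild type and 6, 4 and 4 above. Of all genes 12107, 12106 and 12276 were below and 10559, 10538 and 9740 above. The summed level of the 15 genes was 82.6 FPKM in wild type and 75.3, 51.4 and 34.1 in the clones. Their median log2 ratio was -0.12, -0.31 and -0.34, and over the 11 with a mean of at least 1 FPKM it was 0.10, -0.33 and -0.53, so that its sign in CAST+/129- depended on this filter. Of 20 further germ cell genes, 5 of which had that level, Tex14, a gene of the intercellular bridges of germ cells, passed it downward in CAST-/129- at 19.8 FPKM in wild type and 7.64, 6.02 and 2.80 in the clones, and 0 passed it upward. That is 1 of 20, beside 0.511% of all genes and 1.98% of those at 8 FPKM or more in wild type. Of 5 KH domain relatives of Dppa5a, Khdc3 and Ooep, maternal genes of the oocyte and early embryo, passed it downward in CAST-/129- (2 of 5, beside the same shares), and the other 3 were under 0.4 FPKM in every library. Khdc3 was at 40.0 FPKM in wild type and 120.3, 85.5 and 4.35 in CAST+/129-, CAST-/129+ and CAST-/129-. Like Stk31 it was above wild type in the monoallelic clones and below it in CAST-/129-.

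Of 8 genes listed for the 2-cell embryo, where Dppa2 and Dppa4 are known to act, 6 were found in the annotation. None of these passed the threshold. Of all genes 0.321%, 0.473% and 0.819% were past it up and 0.305%, 0.330% and 0.511% down in CAST+/129-, CAST-/129+ and CAST-/129-. Of the 6, only 1, Eif1a, had the level in wild type that a downward call needs. Their median log2 ratio was 0.81, 0.27 and 0.97 in CAST+/129-, CAST-/129+ and CAST-/129-, beside 0.00 over all genes. Zscan4c, Zscan4d and Zscan4f, among the 6, are members of the Zscan4 family, which share sequence, so that their counts are uncertain. Their log2 ratios were alike, at 1.17, 1.18 and 1.04 in CAST+/129-, 0.36, 0.33 and 0.49 in CAST-/129+ and 1.44, 1.48 and 1.35 in CAST-/129-. The median is therefore not one of 6 separate genes. Of 15 regulators of silencing at germline promoters, a list that holds DNA methyltransferases and repressors and also Tet1 and Tet2, 1 passed the threshold. This was Tet2, which oxidizes 5-methylcytosine and so acts against DNA methylation. It was past 3-fold down in CAST-/129+ and CAST-/129- (1 of 15 in each, beside 0.330% and 0.511% of all genes), at 53.3 FPKM in wild type and 22.1, 9.27 and 8.50 in CAST+/129-, CAST-/129+ and CAST-/129-, and 0 passed it upward. The median log2 ratio of the 15 was 0.15, 0.03 and -0.09. Of them 11, 8 and 6 were above wild type and 4, 7 and 9 below. Tet1 was at 55.1%, 41.7% and 32.0% of wild type in CAST+/129-, CAST-/129+ and CAST-/129-. Its log2 ratio of -1.54 in CAST-/129- was short of the threshold, whereas the paper lists Tet1 among its down-regulated genes. Dnmt3b was at 224%, 300% and 224% of wild type in the same order. Its log2 ratios of 1.10, 1.51 and 1.10 were also short of the threshold.

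For each of the 10 genes the 3 genes nearest to it were found by the Euclidean distance over the 3 log2 ratios, among 9528 genes with a mean of at least 5 FPKM. Nearest to Dppa3 were Gm10106, Id2 and Rhox9, at distances of 0.577 to 0.652, and Id2 was at 2.98 FPKM in wild type and 62.6, 46.5 and 22.4 in CAST+/129-, CAST-/129+ and CAST-/129-. Nearest to Dazl were Lrrc34, Slc15a1 and Nlrp4f (0.348 to 0.507), with Lrrc34 at 23.7, 3.31, 3.14 and 0.181 FPKM. Nearest to Sohlh2 were Parvb, Sorl1 and Trib3 (0.173 to 0.229), to Stk31 Smtnl1, Gm9112 and Agpat2 (0.353 to 0.617), and to Tdrd12 Ptpn13, Psme2 and Nxf7 (0.121 to 0.143). The nearest gene lay at a distance of 0.0583 from Dppa4, 0.0312 from Dppa5a, 0.0410 from Mael and 0.0173 from Ddx4. Syce2, a meiosis gene, was the nearest to Dppa2 at 0.122, with 20.9, 40.4, 27.3 and 16.2 FPKM. The distances describe 4 libraries and share the wild type library.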

How the data were processed

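RNA-seq of 4 F123 clones and ChIP-seq of F123 and J1 cells were analysed, 7 libraries with 1 per condition, grouped by their labels. The authors mapped RNA-seq reads with Novoalign and USeq and, per the labels, ChIP-seq reads with Bowtie to mm9 (versions are not given in the sources used here). The deposited files list aligned segments with identical ones collapsed and a whole-number count of reads behind each. Alleles were not told apart. For H3K4me3 the label and the study's methods name different antibodies, and which was used is not settled by the sources used here.

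RNA-seq lines carry the strand opposite to the transcript. Distinct alignments were counted by their midpoint in exonic bases of 1 gene only (GENCODE M1 on NCBIM37, 31498 of 37310 genes with at least 200 such bases), and FPKM used the alignments on these genes. A gene was called at a 3-fold ratio of FPKM plus 4. The files hold 0 alignments in the introns of 9 of the 10 genes, Tdrd12 being the exception, so introns were not used. ChIP-seq was counted by 5′ ends. Intervals are exact 95% Poisson intervals of counts and exact binomial intervals of ratios and antisense shares. An antisense count of 0 has the exact binomial upper bound. With 1 library per condition there was no test. Near-identical copies were found with blastn 2.17.0. The software was scipy 1.17.1, numpy 2.4.6, pysam 0.24.0, pandas 2.3.3 and matplotlib 3.10.9 under Python 3.11.15. The calls were also run on simulated counts with counting error alone, where changes well past 3-fold were set in well-expressed genes. That does not cover genes low in wild type, changes near the threshold or differences between clones and libraries.

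The genes and lists were chosen with earlier results of these data known. Named are the 10 genes, Sox2, up to 4 genes per list past 3-fold in some clone, and some of the neighbours and of the most alike genes. The 3 most alike genes were sought for each gene of at least 10 FPKM in some library. Lum, Fn1, Vim, Tet1, Dnmt3b, Eif1a and the Zscan4 genes were named after their values were seen. Alternatives changed the library size, counting unit, depth, strand, bases, pseudo-value, threshold, filter, window and baseline, and adding the copies and the split of Tdrd12's exons were chosen after the data were seen. Protein sequences, Hi-C, RT-qPCR and allele-specific values were not analysed here.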

Additional observations from a re-analysis of the deposited data

Results flagged for a closer look

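Dppa2, Dppa4 and Stk31 lay on opposite sides of wild type in the monoallelic clones and in CAST-/129-. Dppa2 was at 197%, 125% and 84.4% of wild type in CAST+/129-, CAST-/129+ and CAST-/129-, Dppa4 at 156%, 128% and 82.8%, and Stk31 at 237%, 246% and 40.9%. With 1 library per genotype the difference was not tested. The summed level of 15 fibroblast markers was 304.0 FPKM in wild type and 333.9, 368.5 and 1096 in CAST+/129-, CAST-/129+ and CAST-/129-. It was thus above wild type in all 3 clones and highest in CAST-/129-, and its part was not tested.

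On the antisense strand, which the comparisons do not use, Ddx4 had 4 of 138 alignments in CAST-/129- (2.90%, exact binomial interval 0.795 to 7.26), above the 0.202% of wild type, and Stk31 had 4 of 75 (5.33%, 1.47 to 13.1), above 0.404%. These are 4 alignments each, and the difference was not tested.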

How the results depend on the processing

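No paired analysis was possible because each genotype has 1 library. With a pseudo-value of 1 in place of 4, 2 genes were past 3-fold up in CAST+/129- and 2 in CAST-/129+ (Dppa3 and Tdrd12) and 2 down in CAST+/129- (Sohlh2 and Dazl). With a pseudo-value of 10, 0 were down in CAST+/129-, 1 was down in CAST-/129+ and 0 were up in CAST-/129-. At 2-fold, 2 genes were up and 2 down in CAST+/129- and 3 up in CAST-/129+. At 5-fold, 0 were down in CAST+/129- and in CAST-/129+, 1 was down in CAST-/129- and 0 were up in CAST-/129-. By reads and with the reads thinned to the same number, 2 were down in CAST+/129-, and with median-of-ratios scaling 1 was down in CAST-/129+, Sohlh2 being lost there as with the pseudo-value of 10. For H3K4me3, 5 promoters were marked in a window of 1 kb and 1 at 10-fold, and the shares of all starts at these settings were not taken. With exons 1 to 12 of Tdrd12 in place of the whole gene, Tdrd12 was past 3-fold up in CAST-/129+ beside Dppa3, at a log2 ratio of 1.89. The other alternatives left these counts of the 10 genes within 1.5 times. Over all genes, 101, 149 and 258 were past 3-fold up and 96, 104 and 161 down in CAST+/129-, CAST-/129+ and CAST-/129-. These became 287, 427 and 701 up and 348, 407 and 565 down with a pseudo-value of 1, and 50, 75 and 120 up and 24, 32 and 50 down with 10. They were 285, 384 and 630 up and 401, 482 and 605 down at 2-fold, and 49, 56 and 103 up and 14, 16 and 29 down at 5-fold. With all alignments as the library size, 62 and 106 were down in CAST+/129- and CAST-/129-. By reads 79 of all genes were down in CAST+/129-, and 91 with the reads thinned to the same number. With median-of-ratios scaling 98 were down in CAST-/129+. Thinning evened the reads, and the distinct alignments on genes still ran from 5132527 to 7066275. By reads, 34 of 40 FPKM values moved beyond their counting intervals. Of the log2 ratios, 7 values changed sign, all of them of Dppa5a. No library could be left out, counting intervals cover neither clone nor library differences, and a level under the pseudo-value, as for Tdrd12 in wild type, limits what the ratio can show.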
